A study of Mus musculus with 9 samples.

Results

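The mitosis and spindle genes described here are 46 mouse genes, chosen by symbol, whose products drive entry into mitosis, build the spindle, attach chromosomes to it and split the cell. They were read as rows of a deposited gene table of 17565 genes, and all 46 were present and passed the filter on low values. They make up 0.896 ± 0.0175% of the gene reads of Control libraries (SD, n = 3). The material was MS1, an established endothelial cell line from the mouse pancreas, in 3 groups of 3 samples profiled by sequencing of poly-A RNA. TAZ-CAMTA1 cells stably carried the fusion of TAZ with CAMTA1, the fusion protein of the vascular cancer epithelioid hemangioendothelioma, in a pCDH lentiviral vector. TAZ4A cells stably carried a TAZ mutant whose Hippo kinase sites are changed to alanine, also in a pCDH vector. Control cells carried pCDH-puro, the vector with its puromycin resistance gene, so that all 3 groups share the lentiviral backbone. The species and tags of the TAZ sequences are not given in the sources used here, nor whether a group is a pool of infected cells or a clone.

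Entry into mitosis depends on CDK1 bound to cyclin B, which CDC25 phosphatases switch on and which works with polo-like and Aurora kinases. The spindle assembly checkpoint holds back the anaphase-promoting complex until every kinetochore is attached, after which separase frees the sister chromatids and the cleavage furrow closes. Most of these genes are transcribed late in the cell cycle, when the MuvB complex with B-MYB and FOXM1 takes the place of the repressive DREAM complex at a promoter element named the cell cycle genes homology region. In a growing cell line the summed level of such transcripts follows both the number of cells in G2 and M phase and the RNA per cell. In these bulk samples fewer cells in mitosis and less RNA per cell cannot be told apart.

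Promoters of 6 members are shown, because their genes are described in detail below and because they show the letters of that element present and absent. Each runs from 100 bases before the start of the gene in RefSeq through the first 30 bases from it, 5′ to 3′ on the gene's strand, in build GRCm38.p6. Capitals mark TTTGAA or TTCGAA, the core of the homology region, and CCAAT, the box bound by NF-Y, each on either strand (TTCAAA and ATTGG are the reverse strand). The windows are chr4:118437314-118437443 (minus strand) for Cdc20, chr9:70421525-70421654 (minus) for Ccnb2, chr9:61946770-61946899 (minus) for Kif23, chr19:37376282-37376411 (plus) for Kif11, chr3:27153825-27153954 (minus) for Ect2, the first of its 2 windows, and chr1:169531435-169531564 (minus) for Nuf2.
Cdc20: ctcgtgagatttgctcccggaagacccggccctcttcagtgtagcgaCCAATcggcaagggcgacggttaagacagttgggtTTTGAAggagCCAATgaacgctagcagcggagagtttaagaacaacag
Ccnb2: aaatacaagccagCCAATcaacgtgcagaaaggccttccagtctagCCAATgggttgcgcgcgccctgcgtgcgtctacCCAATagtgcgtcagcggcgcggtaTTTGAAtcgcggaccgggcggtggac
Kif23: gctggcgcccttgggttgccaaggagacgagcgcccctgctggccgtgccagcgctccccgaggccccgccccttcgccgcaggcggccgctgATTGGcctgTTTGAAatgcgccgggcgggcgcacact
Kif11: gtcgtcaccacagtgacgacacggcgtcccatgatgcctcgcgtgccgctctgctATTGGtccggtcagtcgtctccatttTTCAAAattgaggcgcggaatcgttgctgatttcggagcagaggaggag
Ect2: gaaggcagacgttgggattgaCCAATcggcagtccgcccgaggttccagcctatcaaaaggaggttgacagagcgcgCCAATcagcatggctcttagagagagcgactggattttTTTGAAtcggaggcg
Nuf2: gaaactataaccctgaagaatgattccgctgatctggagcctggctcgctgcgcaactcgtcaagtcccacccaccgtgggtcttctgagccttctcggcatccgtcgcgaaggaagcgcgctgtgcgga
In the stretches shown, Nuf2 holds neither motif and the other promoters hold both. The same stretch of the second Ect2 window, not shown, holds CCAAT but neither TTTGAA nor TTCGAA. RefSeq promoter windows of 300 bases, 250 before the start and 50 from it, were given for 39 of the 46 members, as 42 windows. TTTGAA or TTCGAA stood in 33 of the 42 windows (78.6%), against 19.2% of all 32851 windows of that length. In the 100 bases around the start it stood in 69.0% of the member windows and in 5.31% of all windows. CCAAT stood in 76.2% of member windows against 37.4% of all, and both motifs in 71.4% against 7.52%. Counted by gene, 30 members held the homology core and 9 did not. A match describes the letters in the window and says nothing of binding.

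Gene reads recovered from the deposited values numbered 21966004 to 34224715 per library, and a level of 1 read was 0.0293 to 0.0464 CPM. Of 13 endothelial markers 12 were above 1 CPM in every library, with summed levels of 9646 to 11976 CPM in TAZ-CAMTA1, 7153 to 7377 CPM in TAZ4A and 10627 to 10969 CPM in Control. Cldn5 was at or near 0 in all groups. Fibroblast and mural markers summed to 13.7 to 20.5 CPM, 19.3 to 21.2 CPM and 6.16 to 8.13 CPM in those groups. The summed leukocyte list was 462 to 713 CPM in TAZ-CAMTA1, 396 to 404 CPM in TAZ4A and 451 to 524 CPM in Control, nearly all of it Cd68, while Ptprc averaged 0.0918 CPM or less in each group. Of 12 epithelial and pancreatic markers 6 were in the table, and they summed to 21.1 to 49.6 CPM in TAZ-CAMTA1, 28.0 to 30.2 CPM in TAZ4A and 20.8 to 24.1 CPM in Control, most of it Krt18. The part of other cells in the results was not tested. Camta1 averaged 13.1 ± 0.579 CPM in TAZ-CAMTA1, 4.91 ± 0.253 CPM in TAZ4A and 4.05 ± 0.923 CPM in Control (SD, n = 3 each). Wwtr1, which encodes TAZ, averaged 437 ± 94.4 CPM in TAZ-CAMTA1, 325 ± 8.70 CPM in TAZ4A and 551 ± 17.6 CPM in Control, so that no excess of mouse Wwtr1 marked the libraries labelled TAZ4A. Whether the 3 libraries of a group were grown separately is not stated in the labels, and the p-values measure the spread between them, which may be technical.

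The library of TAZ-CAMTA1 replicate 2 was unlike the rest. Its correlation with the other TAZ-CAMTA1 libraries over log2 CPM was 0.9628 and 0.9619, where other pairs within a group reached 0.9975 or more. The share of its reads in ribosomal protein genes was 3.86%, where the other libraries had 1.76 to 2.04%. Among the mitosis and spindle genes its departure followed the counted length of the gene, as described near the end, and results are given with all 9 libraries and without it.

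Measured per length, in deposited TPM, the members were well expressed in every group. In TAZ-CAMTA1 the median of their mean levels was 93.5 TPM and the highest was 444 TPM. In TAZ4A they ran from 26.5 to 473 TPM with a median of 130 TPM. In Control they ran from 27.8 TPM for Cdc25c, a phosphatase that activates CDK1, to 580 TPM for Ube2c, the ubiquitin-conjugating enzyme of the anaphase-promoting complex, with a median of 126 TPM. Cdc20 stood at 320 ± 20.1 TPM in TAZ-CAMTA1 and 496 ± 20.8 TPM in Control (SD, n = 3 each). Top2a stood at 380 ± 127 TPM in TAZ-CAMTA1 and 434 ± 26.7 TPM in Control, and Anln at 180 ± 69.3 TPM in TAZ-CAMTA1 and 292 ± 15.7 TPM in Control. In TAZ4A, Cdc20 was at 369 ± 12.4 TPM, Top2a at 471 ± 13.5 TPM and Anln at 332 ± 10.1 TPM. The TAZ-CAMTA1 means in TPM include replicate 2. Without it the log2 fold change of Top2a in CPM against Control was 0.02 ± 0.05 (SE).

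In TAZ-CAMTA1 cells many of these genes were called lower than in Control. With limma on log2(CPM + 0.5) and a Benjamini-Hochberg adjusted p under 0.05, 25 of the 46 members were called lower and 0 higher, where 15.3% of all 12350 genes tested were called lower and 16.8% higher. Without TAZ-CAMTA1 replicate 2, 39 were called lower and 0 higher, where 32.3% of all genes were called lower and 28.5% higher, and these 39 included all 25. The median log2 fold change of the members was -0.38 with all 9 libraries and -0.34 without replicate 2, where that of all genes was -0.03 and -0.02. In 33 of 46 members every TAZ-CAMTA1 library lay below every Control library (24.7% of all genes) and in 0 above (22.8%). Without replicate 2, 41 lay below (36.8%) and 0 above (33.4%). With limma, 0 members were higher at an unadjusted p under 0.05 in either fit. The quasi-likelihood test of edgeR on the recovered reads called 24 lower and 0 higher, where it called 13.7% and 18.2% of all genes, and DESeq2 called 28 lower and 0 higher, where it called 17.2% and 20.5%. With only the 6 libraries compared, limma called 16 lower and 0 higher, where it called 8.03% and 11.8%. Without single libraries other than TAZ-CAMTA1 replicate 2 it called 17 to 25 lower, the lowest count being that without Control replicate 2 or 3. The share of all genes in those fits is not given here, so these counts do not separate the members from all genes. Of the 9 members whose promoter windows lacked the homology core, 8 were called lower without replicate 2, as were 25 of the 30 that held it.

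In the libraries labelled TAZ4A members lay on both sides of Control. Against Control, 7 members were called lower (Ccnb2, Ccnf, Cdc25b, Cdc20, Kif23, Nusap1 and Mad2l1) and 0 higher, where 11.7% of all genes were called lower and 13.2% higher. Without TAZ-CAMTA1 replicate 2, whose spread enters the shared error, 17 were called lower and 5 higher (Foxm1, Ect2, Hmmr, Anln and Ckap2), where 30.3% and 28.1% of all genes were. In that fit the split among members was nearer to even with quantile normalization, at 11 lower and 10 higher (32.7% and 27.1% of all genes), and with deposited TPM, at 11 lower and 8 higher (22.5% and 30.1%). The median log2 fold change was -0.06 in both fits, and -0.01 for all genes. In 21 members every TAZ4A library lay below every Control library and in 9 above, where 32.7% and 30.4% of all genes did so. At an unadjusted p under 0.05, limma with all libraries had 1 member higher, Foxm1. With edgeR 6 were called lower and 0 higher, where it called 11.1% and 13.9% of all genes, and with DESeq2 8 lower and 1 higher, where it called 13.6% and 16.1%. The count of 7 changed with the scaling and with the libraries fitted. With CPM rescaled to equal sums, 3 were called lower and 1 higher. The split over all genes then became 1959 higher and 1108 lower in place of 1630 and 1447. Without any single TAZ4A or Control library 1 or 2 were called lower, and the share of all genes in those fits is not given here. Over the 9 fits leaving out 1 library, Kif23 ran from -0.39 to -0.36 on the log2 scale and Nusap1 from -0.39 to -0.28. All 7 were called without TAZ-CAMTA1 replicate 2. The 7 kept their sign under each scaling run.

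Compared directly with TAZ4A, TAZ-CAMTA1 libraries had 21 members lower and 0 higher, where 18.5% of all genes were called lower and 19.4% higher. Without replicate 2 the counts were 34 lower and 0 higher, where 32.2% and 30.8% of all genes were called. The median log2 fold change was -0.29 with all libraries and -0.26 without replicate 2, against -0.02 and -0.01 for all genes. Every TAZ-CAMTA1 library lay below every TAZ4A library in 30 members (28.8% of all genes) and above in 1, Ccnb2 (26.5%). With limma 0 members were higher at an unadjusted p under 0.05. The quasi-likelihood test of edgeR called 21 lower and 0 higher, where it called 17.7% and 20.1% of all genes, and DESeq2 called 22 lower and 0 higher, where it called 21.0% and 22.7%. The comparisons of TAZ-CAMTA1 and of TAZ4A with Control share the 3 Control libraries, and the TAZ4A libraries enter both of their comparisons.

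**Figure D1:**
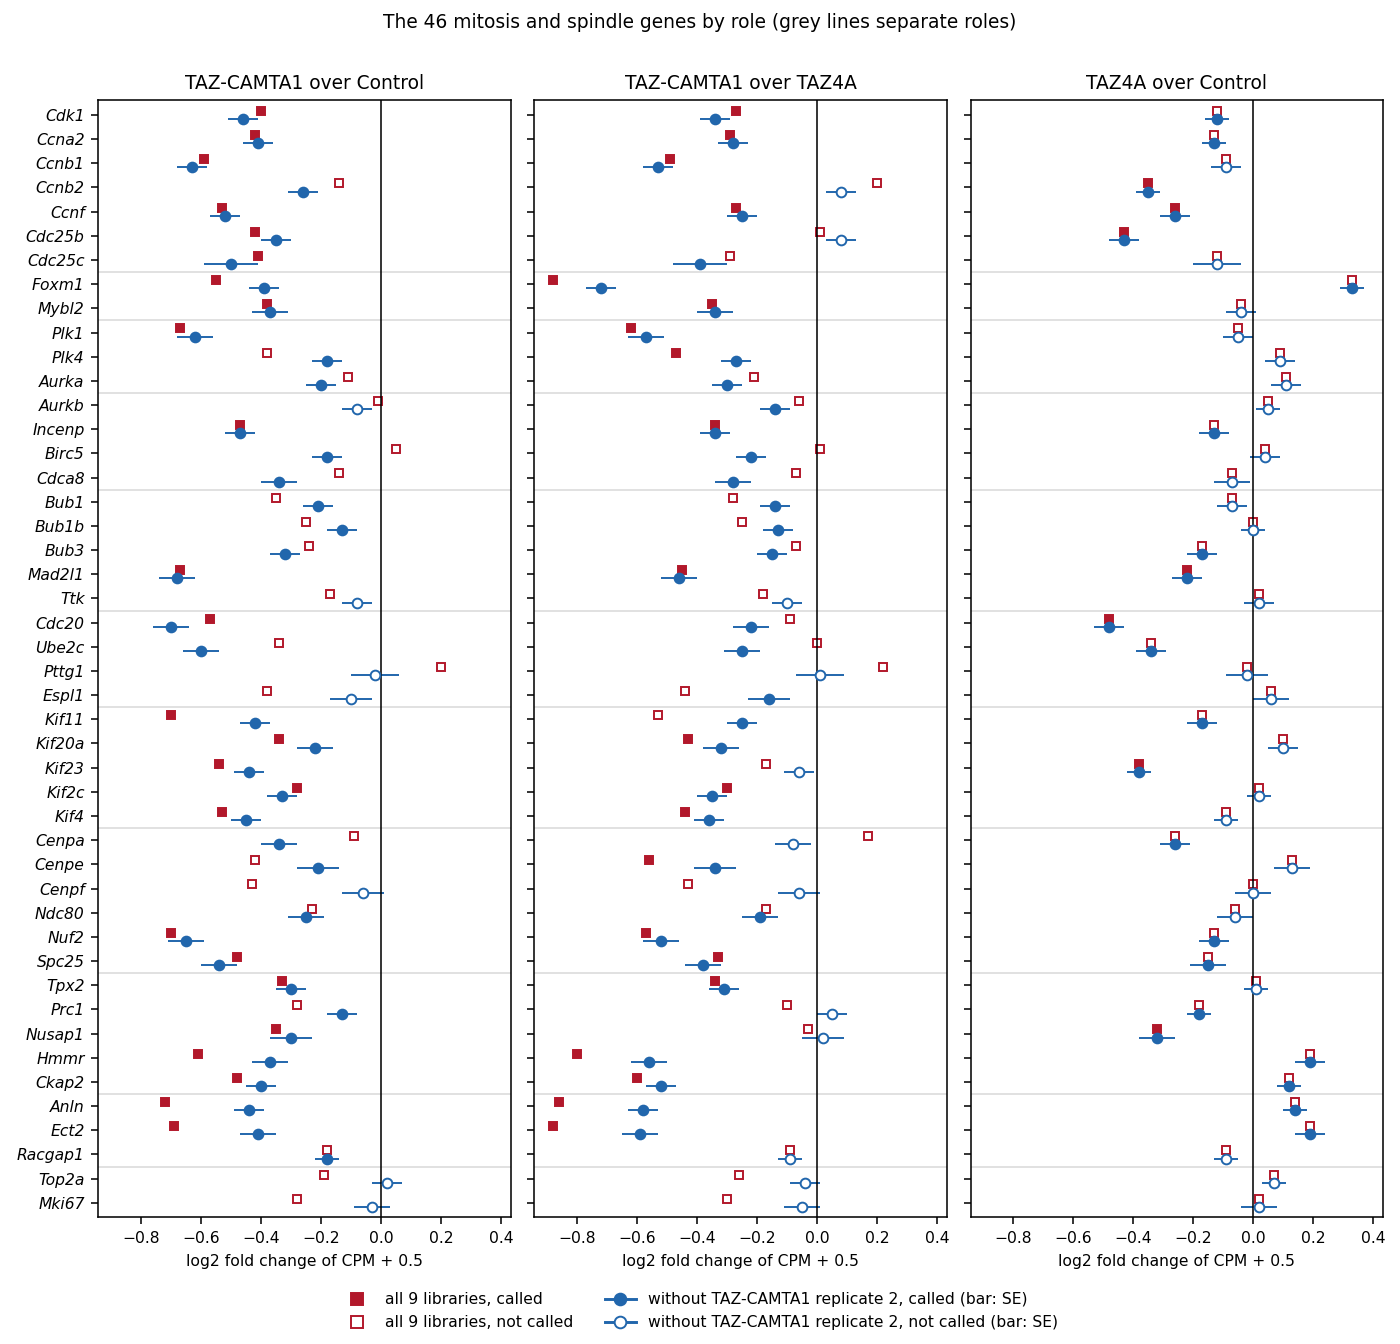
The log2 fold change of each of the 46 genes (x axis, on log2(CPM + 0.5)) is shown by role from CDK1 and its cyclins at the top to the mitotic chromosome at the bottom, with squares for the fit to all 9 libraries and circles with SE bars for the fit without TAZ-CAMTA1 replicate 2, filled where called. In the 2 panels with TAZ-CAMTA1 nearly all points lie left of 0, and in the panel of TAZ4A over Control they lie on both sides.

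CDK1, its activating phosphatases and the cyclins listed with them, cyclin F among these, stood low in TAZ-CAMTA1. Of 7 genes of this role 6 were called lower than Control with all libraries and 7 without replicate 2, where 15.3% and 32.3% of all genes were. Cdk1, the kinase that starts mitosis, had 208, 241 and 215 CPM in TAZ-CAMTA1 replicates 1 to 3, 267, 263 and 271 CPM in TAZ4A, and 291, 301 and 281 CPM in Control. The 3 groups did not overlap, and the log2 fold change of TAZ-CAMTA1 over Control was -0.40 ± 0.08 (adjusted p = 0.0047). Over TAZ4A it was -0.27 ± 0.08 (adjusted p = 0.022), a call lost without TAZ-CAMTA1 replicate 1 or 3 or any single TAZ4A library (adjusted p up to 0.0780). Ccnb1, cyclin B1, had 45.7, 51.5 and 49.1 CPM in TAZ-CAMTA1, 67.3, 68.3 and 70.9 CPM in TAZ4A, and 74.3, 73.1 and 73.0 CPM in Control. It fell in TAZ-CAMTA1 against Control by 0.59 on the log2 scale (SE 0.07, adjusted p = 3.9e-04) and against TAZ4A by 0.49 (SE 0.07, adjusted p = 7.6e-04). Its level is uncertain because 65.5% of its junction reads mapped to several places, although unique junction reads alone gave a log2 fold change of -0.55 against Control.

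The other cyclins and phosphatases did not share one pattern over the groups. Ccnf, cyclin F, a ubiquitin ligase component, had 99.1, 93.6 and 93.8 CPM in TAZ-CAMTA1, 116, 119 and 110 CPM in TAZ4A, and 135, 141 and 139 CPM in Control, with log2 fold changes against Control of -0.53 ± 0.07 (adjusted p = 5.4e-04) in TAZ-CAMTA1 and -0.26 ± 0.07 (adjusted p = 0.021) in TAZ4A. The TAZ4A call was lost without any single TAZ4A or Control library (adjusted p up to 0.0970). Cdc25b, a phosphatase that triggers CDK1, had 136, 117 and 132 CPM in TAZ-CAMTA1, 129, 131 and 122 CPM in TAZ4A, and 167, 179 and 168 CPM in Control. Both constructs were below Control, at -0.42 ± 0.08 in TAZ-CAMTA1 and -0.43 ± 0.08 in TAZ4A (adjusted p = 0.0044 and 0.0042), and the constructs overlapped each other with a difference of 0.01 ± 0.08 (adjusted p = 0.92). Ccnb2, cyclin B2, had 98.4, 129 and 104 CPM in TAZ-CAMTA1, 97.4, 94.9 and 94.1 CPM in TAZ4A, and 123, 124 and 118 CPM in Control. Every TAZ4A library was below all libraries of the other groups, at -0.35 ± 0.10 against Control (adjusted p = 0.039), a call lost without any single TAZ4A or Control library (adjusted p up to 0.122). TAZ-CAMTA1 overlapped Control through its replicate 2 (-0.14 ± 0.10, adjusted p = 0.31) and passed without it (-0.26 ± 0.05, adjusted p = 2.9e-04). Ccna2, cyclin A2, and Cdc25c fell in TAZ-CAMTA1 against Control, at -0.42 and -0.41. The call of Cdc25c was kept in 2 of the 9 fits that left out 1 library, those without TAZ-CAMTA1 replicate 2 or TAZ4A replicate 3 (adjusted p up to 0.113).

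Foxm1, the forkhead factor that activates late cell cycle promoters, was low in TAZ-CAMTA1 and high in TAZ4A. It had 167, 120 and 166 CPM in TAZ-CAMTA1, 275, 276 and 276 CPM in TAZ4A, and 228, 210 and 219 CPM in Control. All TAZ4A libraries lay above all Control libraries and all TAZ-CAMTA1 libraries below them. The log2 fold change of TAZ-CAMTA1 over TAZ4A was -0.88 ± 0.12 (adjusted p = 8.4e-04), and -0.72 ± 0.05 without replicate 2. Against Control, TAZ-CAMTA1 fell by 0.55 on the log2 scale (SE 0.12, adjusted p = 0.011), and by 0.39 without replicate 2 (SE 0.05, adjusted p = 2.6e-06). TAZ4A over Control was 0.33 ± 0.12, which missed the threshold with all 9 libraries (adjusted p = 0.092) and passed without TAZ-CAMTA1 replicate 2 (0.33 ± 0.04, adjusted p = 4.2e-06). Mybl2, which encodes B-MYB, had 36.1, 34.7 and 34.5 CPM in TAZ-CAMTA1, 46.4, 45.1 and 42.7 CPM in TAZ4A, and 45.9, 46.3 and 45.3 CPM in Control. Only its TAZ-CAMTA1 libraries stood apart, with -0.38 ± 0.07 against Control (adjusted p = 0.0027). Of its junction reads 45.5% mapped to several places.

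Among the polo-like and Aurora A kinases, Plk1 (chromosome 7, 122159436 to 122169875, mm10) had the largest log2 fold change against either group. Plk1, which acts from mitotic entry to cytokinesis, had 96.4, 81.9 and 85.1 CPM in TAZ-CAMTA1, 135, 136 and 133 CPM in TAZ4A, and 137, 136 and 145 CPM in Control. TAZ-CAMTA1 was at 0.630 of Control (log2 fold change -0.67 ± 0.08, adjusted p = 3.9e-04) and at 0.653 of TAZ4A (-0.62 ± 0.08, adjusted p = 4.5e-04). TAZ4A and Control differed by -0.05 ± 0.08 (adjusted p = 0.71). Plk4, the kinase of centriole duplication, was called lower in TAZ-CAMTA1 than in TAZ4A (-0.47 ± 0.16, adjusted p = 0.043), a call lost without any single TAZ4A or Control library (adjusted p up to 0.120). Aurka, which works at spindle poles, passed only without replicate 2 (-0.30 ± 0.05 against TAZ4A and -0.20 ± 0.05 against Control).

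The 4 genes of the chromosomal passenger complex, which corrects faulty attachments and guides cytokinesis, did not move as one. Incenp, its scaffold, was lower in every TAZ-CAMTA1 library than in every Control library, at -0.47 ± 0.07 (adjusted p = 0.0011). Aurkb, its kinase, had 89.7, 107 and 92.9 CPM in TAZ-CAMTA1, 100, 100 and 101 CPM in TAZ4A, and 100, 93.6 and 96.9 CPM in Control, with -0.01 ± 0.08 against Control (adjusted p = 0.96) and -0.08 ± 0.05 without replicate 2 (adjusted p = 0.15), where it was called against TAZ4A (-0.14 ± 0.05, adjusted p = 0.023). Birc5, survivin, had 106, 168 and 104 CPM in TAZ-CAMTA1, 122, 123 and 120 CPM in TAZ4A, and 117, 127 and 113 CPM in Control. Its direction in TAZ-CAMTA1 turned on 1 library: the log2 fold change over Control was 0.05 ± 0.17 (adjusted p = 0.85) with replicate 2 and -0.18 ± 0.05 (adjusted p = 0.0091) without it, and over TAZ4A it was 0.01 ± 0.17 and -0.22 ± 0.05 (adjusted p = 0.97 and 0.0023). Cdca8, borealin, was at -0.14 ± 0.16 against Control with replicate 2 and at -0.34 ± 0.06 without it.

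In the spindle assembly checkpoint Mad2l1 was called with all 9 libraries and the other 4 genes were not. Of all genes, 15.3% were called lower in TAZ-CAMTA1 against Control in that fit. Mad2l1, the protein that binds and holds CDC20, had 76.1, 74.4 and 69.4 CPM in TAZ-CAMTA1, 97.0, 101 and 103 CPM in TAZ4A, and 112, 119 and 120 CPM in Control. The groups were in that order with no overlap, at -0.67 ± 0.07 in TAZ-CAMTA1 (adjusted p = 2.0e-04) and -0.22 ± 0.07 in TAZ4A (adjusted p = 0.049) against Control. The TAZ4A call was lost without TAZ-CAMTA1 replicate 1 and without any single TAZ4A or Control library, with adjusted p up to 0.183. Bub1b, which encodes BUBR1, had 188, 147 and 186 CPM in TAZ-CAMTA1, 202, 204 and 208 CPM in TAZ4A, and 205, 197 and 213 CPM in Control, and was called lower against Control only without replicate 2 (-0.13 ± 0.05, adjusted p = 0.025). Bub1 and Bub3 likewise passed only without replicate 2, at -0.21 and -0.32, and Ttk, the MPS1 kinase, passed in no comparison.

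Cdc20, the activator of the anaphase-promoting complex and the partner that MAD2 holds, was low with both constructs. It had 213, 292 and 236 CPM in TAZ-CAMTA1, 268, 266 and 250 CPM in TAZ4A, and 375, 377 and 340 CPM in Control. Both constructs lay below all Control libraries, at -0.57 ± 0.12 in TAZ-CAMTA1 (adjusted p = 0.0063) and -0.48 ± 0.12 in TAZ4A (adjusted p = 0.017). Without replicate 2 the TAZ-CAMTA1 value was -0.70 ± 0.06, and TAZ-CAMTA1 then fell against TAZ4A by 0.22 (SE 0.06, adjusted p = 0.0038). The TAZ4A call was lost without any single TAZ4A library or without Control replicate 1 or 2, with adjusted p up to 0.0707. Ube2c had a like pattern without replicate 2, at -0.60 ± 0.06 in TAZ-CAMTA1 and -0.34 ± 0.05 in TAZ4A, but neither passed with all libraries (adjusted p = 0.21 and 0.26). Pttg1, securin, passed in no comparison (-0.02 ± 0.08 against Control without replicate 2), and Espl1, separase, passed only against TAZ4A without replicate 2 (-0.16 ± 0.07, adjusted p = 0.047).

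All 5 mitotic kinesins fell in TAZ-CAMTA1 against Control, where 15.3% of all genes were called lower with all libraries. Kif11, the motor that pushes spindle poles apart, had 273, 147 and 251 CPM in TAZ-CAMTA1, 313, 304 and 319 CPM in TAZ4A, and 333, 349 and 371 CPM in Control. Its log2 fold change against Control was -0.70 ± 0.21 (adjusted p = 0.032) with replicate 2, which was the lowest library, and -0.42 ± 0.05 (adjusted p = 6.5e-06) without it. The call was lost without any single TAZ4A or Control library, with adjusted p up to 0.101. Kif23, the motor of the central spindle, had 194, 156 and 195 CPM in TAZ-CAMTA1, 204, 198 and 206 CPM in TAZ4A, and 263, 257 and 271 CPM in Control. Like Cdc20 it was low with both constructs, at -0.54 ± 0.10 in TAZ-CAMTA1 (adjusted p = 0.0030) and -0.38 ± 0.10 in TAZ4A (adjusted p = 0.020), the TAZ4A call again being lost without any single TAZ4A or Control library (adjusted p up to 0.0794). Kif2c, Kif4 and Kif20a fell in TAZ-CAMTA1 against both other groups, at -0.28, -0.53 and -0.34 against Control and -0.30, -0.44 and -0.43 against TAZ4A. The calls against Control were lost for Kif20a without TAZ-CAMTA1 replicate 1 or any single TAZ4A or Control library (adjusted p up to 0.125), and for Kif2c without TAZ-CAMTA1 replicate 3 or any single Control library (up to 0.0746). Against TAZ4A, that of Kif2c was lost without TAZ4A replicate 1 or 2 (up to 0.0556).

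Of the 6 centromere and kinetochore genes 2 were called lower in TAZ-CAMTA1 than in Control with all libraries, and 5 without replicate 2. Of all genes, 15.3% and 32.3% were called lower in those fits. Nuf2, part of the NDC80 complex that grips microtubules, had 79.6, 67.7 and 72.3 CPM in TAZ-CAMTA1, 107, 108 and 111 CPM in TAZ4A, and 112, 123 and 123 CPM in Control. It fell in TAZ-CAMTA1 by 0.70 on the log2 scale against Control (SE 0.08, adjusted p = 3.5e-04) and by 0.57 against TAZ4A (SE 0.08, adjusted p = 8.0e-04). Spc25, of the same complex, fell in TAZ-CAMTA1 by 0.48 against Control, while Ndc80 itself passed only without replicate 2 (-0.25 ± 0.06, adjusted p = 0.0029). Cenpe, a kinetochore motor, was called against TAZ4A with all libraries (-0.56 ± 0.17, adjusted p = 0.032), a call lost without any single TAZ4A library or without Control replicate 1 or 2 (adjusted p up to 0.102), and against Control without replicate 2 (-0.21 ± 0.07, adjusted p = 0.011). Cenpa, the centromeric histone, had 99.8, 165 and 96.8 CPM in TAZ-CAMTA1, 99.4, 105 and 107 CPM in TAZ4A, and 123, 132 and 118 CPM in Control. Replicate 2 was the highest of all 9 libraries, and without it both constructs were called lower than Control, at -0.34 ± 0.06 (adjusted p = 8.5e-05) and -0.26 ± 0.05 (adjusted p = 3.2e-04). Cenpf, a large protein of the outer kinetochore, had 216, 95.8 and 194 CPM in TAZ-CAMTA1, 216, 207 and 218 CPM in TAZ4A, and 204, 200 and 240 CPM in Control, and passed in no comparison.

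Among the spindle microtubule proteins, Hmmr and Ckap2 were highest in TAZ4A and lowest in TAZ-CAMTA1. Hmmr, which binds spindle poles, had 120, 71.1 and 115 CPM in TAZ-CAMTA1, 173, 169 and 178 CPM in TAZ4A, and 140, 152 and 164 CPM in Control. Against TAZ4A the TAZ-CAMTA1 libraries fell by 0.80 on the log2 scale (SE 0.18, adjusted p = 0.0096), and by 0.56 without replicate 2. Ckap2, which steadies microtubules, had 109, 92.3 and 107 CPM in TAZ-CAMTA1, 156, 153 and 157 CPM in TAZ4A, and 141, 145 and 144 CPM in Control, with -0.60 ± 0.08 between the constructs (adjusted p = 5.6e-04). Nusap1, a spindle bundling protein, had 146, 125 and 129 CPM in TAZ-CAMTA1, 134, 136 and 138 CPM in TAZ4A, and 153, 177 and 180 CPM in Control. It was lower with both constructs, at -0.35 ± 0.09 in TAZ-CAMTA1 (adjusted p = 0.018) and -0.32 ± 0.09 in TAZ4A (adjusted p = 0.032). The TAZ4A call was lost without any single TAZ4A library or without Control replicate 2 or 3 (adjusted p up to 0.124), and the TAZ-CAMTA1 call without Control replicate 2 or 3 (up to 0.0787). Tpx2, the activator of Aurora A, fell in TAZ-CAMTA1 against Control, at -0.33 ± 0.07 (adjusted p = 0.0072), and against TAZ4A, at -0.34 ± 0.07 (adjusted p = 0.0052), and Prc1 passed against Control only without replicate 2.

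Anln and Ect2, which organise the contractile ring, were, with Foxm1, the members with the largest log2 fold changes between the constructs. Anln, anillin, had 486, 268 and 468 CPM in TAZ-CAMTA1, 715, 696 and 733 CPM in TAZ4A, and 631, 640 and 677 CPM in Control. Ect2, the exchange factor that switches on RhoA at the furrow, had 149, 77.7 and 132 CPM in TAZ-CAMTA1, 212, 204 and 221 CPM in TAZ4A, and 179, 182 and 199 CPM in Control. In both genes TAZ4A was the highest group, TAZ-CAMTA1 the lowest, and no libraries overlapped. Against TAZ4A the log2 fold changes in TAZ-CAMTA1 were -0.86 ± 0.20 and -0.88 ± 0.21 (adjusted p = 0.011 and 0.012), and -0.58 ± 0.05 and -0.59 ± 0.06 without replicate 2. Against Control they were -0.72 ± 0.20 and -0.69 ± 0.21 (adjusted p = 0.026 and 0.036), and -0.44 ± 0.05 and -0.41 ± 0.06 without replicate 2. With all 9 libraries the calls against Control were lost without any single Control library, and for Ect2 and Hmmr also without any single TAZ4A library (adjusted p up to 0.0847 for Anln, 0.112 for Ect2 and 0.116 for Hmmr). Racgap1, the partner of KIF23 in the central spindle, was called lower in TAZ-CAMTA1 against Control only without replicate 2 (-0.18 ± 0.04, adjusted p = 0.0029).

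The pair of genes most used as proliferation markers did not pass in any comparison. Top2a, the topoisomerase that untangles chromosomes, had 957, 600 and 935 CPM in TAZ-CAMTA1, 976, 951 and 998 CPM in TAZ4A, and 886, 928 and 978 CPM in Control. Mki67, which coats mitotic chromosomes, had 540, 315 and 515 CPM in TAZ-CAMTA1, 551, 528 and 558 CPM in TAZ4A, and 512, 504 and 603 CPM in Control. In both genes TAZ-CAMTA1 replicate 2 was the lowest library, and the other TAZ-CAMTA1 libraries overlapped Control. Without replicate 2 the log2 fold changes of TAZ-CAMTA1 over Control were 0.02 ± 0.05 for Top2a (95% interval -0.08 to 0.13) and -0.03 ± 0.06 for Mki67 (95% interval -0.16 to 0.11). In the same fit the interval of Plk1 was -0.74 to -0.50 and that of Foxm1 -0.49 to -0.29. The 7 members not called against Control in that fit were Top2a, Mki67, Cenpf, Ttk, Pttg1, Espl1 and Aurkb.

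**Figure D2:**
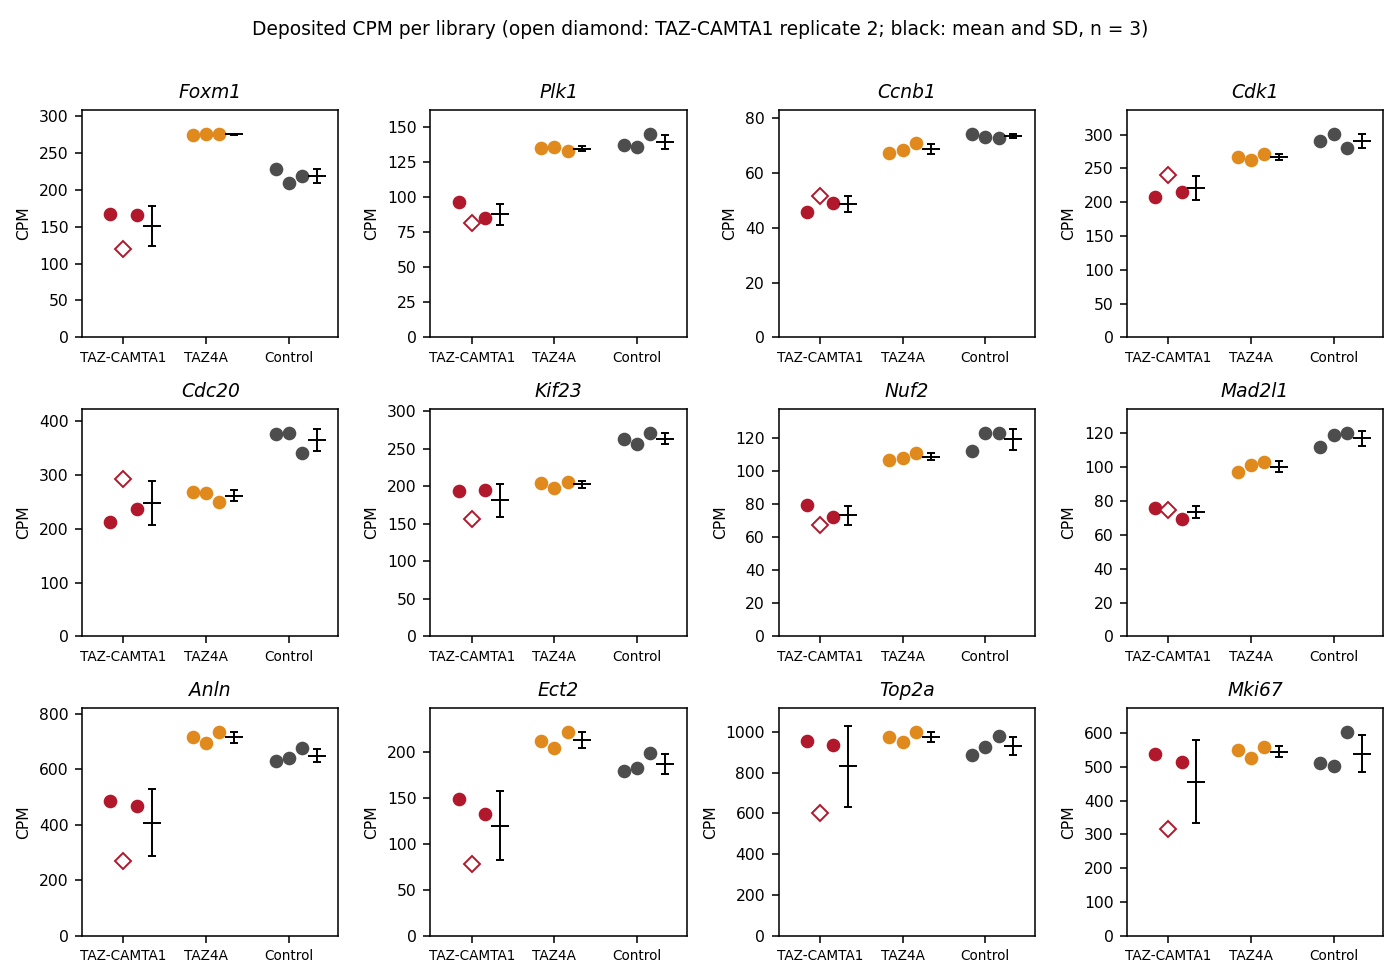
Deposited CPM (y axis, from 0) of 12 members in each library, with TAZ-CAMTA1 left, TAZ4A in the middle and Control right, TAZ-CAMTA1 replicate 2 as an open diamond, and the mean with SD (n = 3) in black. Foxm1, Anln and Ect2 are highest in TAZ4A, Cdc20 and Kif23 are low with both constructs, and Top2a and Mki67 overlap apart from replicate 2.

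The sum over the 46 genes was lowest in TAZ-CAMTA1, in gene reads and in reads across splice junctions. The members took 0.754, 0.643 and 0.741% of gene reads in TAZ-CAMTA1 replicates 1 to 3, 0.903, 0.894 and 0.912% in TAZ4A, and 0.878, 0.896 and 0.913% in Control. All TAZ-CAMTA1 libraries were below all others, and TAZ4A and Control overlapped. Unique reads across annotated introns of the members numbered 9507, 7583 and 9398 RPM of all unique junction reads in TAZ-CAMTA1, 11284, 11159 and 11487 RPM in TAZ4A, and 11069, 11303 and 11439 RPM in Control. Every member called with all 9 libraries had the same sign in junction reads as in gene reads (25 of 25 for TAZ-CAMTA1 against Control, 21 of 21 against TAZ4A and 7 of 7 for TAZ4A against Control). Without replicate 2 the signs matched for 39 of 39, 33 of 34 and 22 of 22. Junction reads come from the same libraries as the gene reads, so the matching signs are not independent support.

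**Figure D3:**
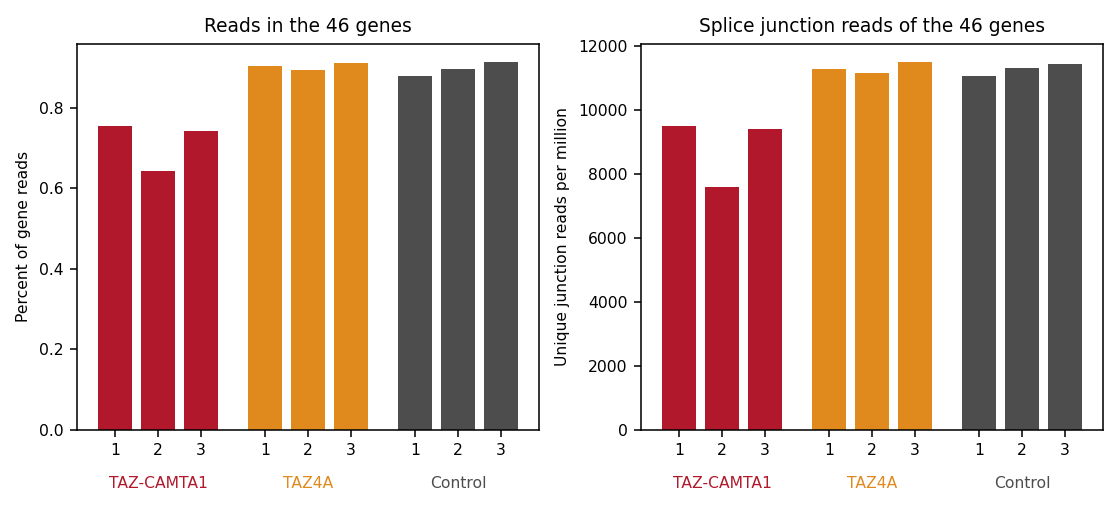
Percent of gene reads in the 46 genes (left) and their unique splice junction reads in RPM (right), as bars from 0 for each replicate of TAZ-CAMTA1, TAZ4A and Control. The TAZ-CAMTA1 bars are 0.643 to 0.754% and the other 6 are 0.878 to 0.913%.

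The departure of TAZ-CAMTA1 replicate 2 followed gene length. Over the 46 members the log2 ratio of replicate 2 to the mean of replicates 1 and 3 ran from -1.09 for Cenpf, the member with the longest counted length, to 0.78 for Ube2c, the shortest. Its Spearman correlation with the length implied by the deposited CPM and TPM was -0.85 over the 46 genes and -0.76 over 10984 genes of the table, which share their libraries and are given as a description. The long members Cenpf, Mki67, Top2a, Anln and Kif11 were lower in TAZ-CAMTA1 with replicate 2 than without it, and the short ones Ube2c, Cenpa, Pttg1 and Cdca8 higher. Members near the median length still differed among themselves, with log2 ratios of -0.45 for Prc1, -0.25 for Ttk, -0.20 for Cdc25b, -0.04 for Ccnf, -0.01 for Racgap1, 0.01 for Incenp and 0.15 for Kif2c. Without replicate 2 the correlation of the log2 fold change with length over the members was 0.34 for TAZ-CAMTA1 against Control, -0.04 against TAZ4A and 0.52 for TAZ4A against Control, where all genes gave 0.08, 0.03 and 0.05. The part of length in the differences between groups was not tested.

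**Figure D4:**
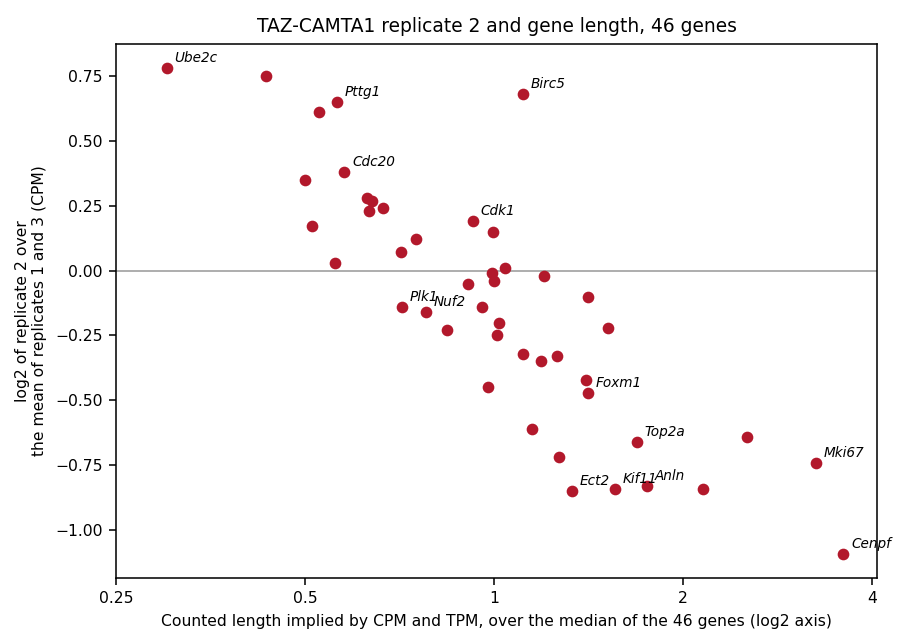
Each point is 1 of the 46 genes, with its counted length relative to the median member (x axis, log2 scale) and the log2 ratio of TAZ-CAMTA1 replicate 2 to the mean of replicates 1 and 3 (y axis). The points run from 0.78 for the short Ube2c down to -1.09 for the long Cenpf, with Birc5 above the rest at its length.

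Beyond the 46 members, 162 other genes of mitosis in 8 lists were tested in the same fit. In TAZ-CAMTA1 against Control 37 fell and 5 rose with all libraries, and 90 and 21 of 162 without replicate 2. Against TAZ4A 42 fell and 17 rose, and 85 and 25 without replicate 2. TAZ4A against Control had 10 lower and 7 higher, and 45 and 32 without replicate 2. Of all genes, with all libraries, 15.3% were lower and 16.8% higher in TAZ-CAMTA1 against Control, 18.5% and 19.4% against TAZ4A, and 11.7% and 13.2% in TAZ4A against Control. Without replicate 2 these shares were 32.3% and 28.5%, 32.2% and 30.8%, and 30.3% and 28.1%. The counts fell without TAZ4A or Control libraries: those lower in TAZ-CAMTA1 were 19 against Control without Control replicate 2 or 3, and 19, 20 and 22 against TAZ4A without TAZ4A replicate 3, 1 and 2. The share of all genes in those fits is not given here. By list, without replicate 2, 8 of 9 other mitotic kinesins, 20 of 32 other spindle and centrosome genes and 20 of 33 other kinetochore and centromere genes were called lower in TAZ-CAMTA1 than in Control. Condensin, cohesin and its protectors had 10 of 20 lower and 2 higher, the mitotic entry and exit kinases and phosphatases 10 of 18 lower and 3 higher, and MuvB, DREAM and E2F genes 10 of 18 lower and 5 higher. Subunits and inhibitors of the anaphase-promoting complex had 7 of 19 lower, near the 32.3% of all genes. They had 1 of 19 higher, below the 28.5% of all genes. Abscission and contractile ring genes had 5 of 13 lower and 4 higher.

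The 8 genes given next are a part of those the rule names and were picked after their values were seen. Each call given for them held without any single library, which does not describe the genes left out. Against Control in TAZ-CAMTA1, Kif20b was called in 6 of 9 such fits, and Nek7, at -1.08, in all 9. Kif18a, a kinesin that damps chromosome movement, averaged 22.4 ± 5.59 CPM in TAZ-CAMTA1, 42.3 ± 3.13 CPM in TAZ4A and 38.5 ± 2.49 CPM in Control, with -0.80 ± 0.17 against Control (adjusted p = 0.0089). Sgol1, shugoshin, which protects centromeric cohesion, averaged 46.2 ± 5.17 CPM in TAZ-CAMTA1, 74.4 ± 1.58 CPM in TAZ4A and 74.6 ± 4.87 CPM in Control, with -0.69 ± 0.10 against Control (adjusted p = 8.9e-04). Gtse1, a microtubule protein of G2 and S phase, averaged 67.8 ± 6.73 CPM in TAZ-CAMTA1 and 116 ± 1.96 CPM in TAZ4A, with -0.77 ± 0.08 between them (adjusted p = 1.5e-04). Nek2, a kinase of centrosome splitting, fell in TAZ-CAMTA1 against Control by 0.71 (SE 0.10, adjusted p = 9.2e-04).

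Others changed in TAZ4A, with both constructs or in opposite ways. Mad1l1, which anchors MAD2 at the kinetochore, averaged 124 ± 5.53 CPM in TAZ4A and 221 ± 9.62 CPM in Control, a fall of its level (-0.83 ± 0.11, adjusted p = 6.8e-04), and TAZ-CAMTA1 was above TAZ4A at 191 ± 29.6 CPM (0.61 ± 0.11, adjusted p = 0.0028). Fam83d, a spindle protein, fell against Control with both constructs, by 0.42 in TAZ-CAMTA1 (adjusted p = 0.0014) and by 0.58 in TAZ4A (SE 0.06, adjusted p = 2.3e-04). E2f2, an E2F activator, averaged 13.4 ± 0.494 CPM in TAZ-CAMTA1, 6.82 ± 0.436 CPM in TAZ4A and 9.90 ± 0.939 CPM in Control. It was called higher in TAZ-CAMTA1 against both other groups (0.42 ± 0.09 against Control and 0.92 ± 0.09 against TAZ4A) and lower in TAZ4A against Control (-0.50 ± 0.09). Sept9, a septin of the abscission machinery, rose in TAZ-CAMTA1 to 493 ± 47.2 CPM, against 317 ± 11.9 CPM in TAZ4A (0.63 ± 0.08, adjusted p = 4.6e-04) and 305 ± 0.964 CPM in Control (0.69 ± 0.08, adjusted p = 3.9e-04).

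**Figure D5:**
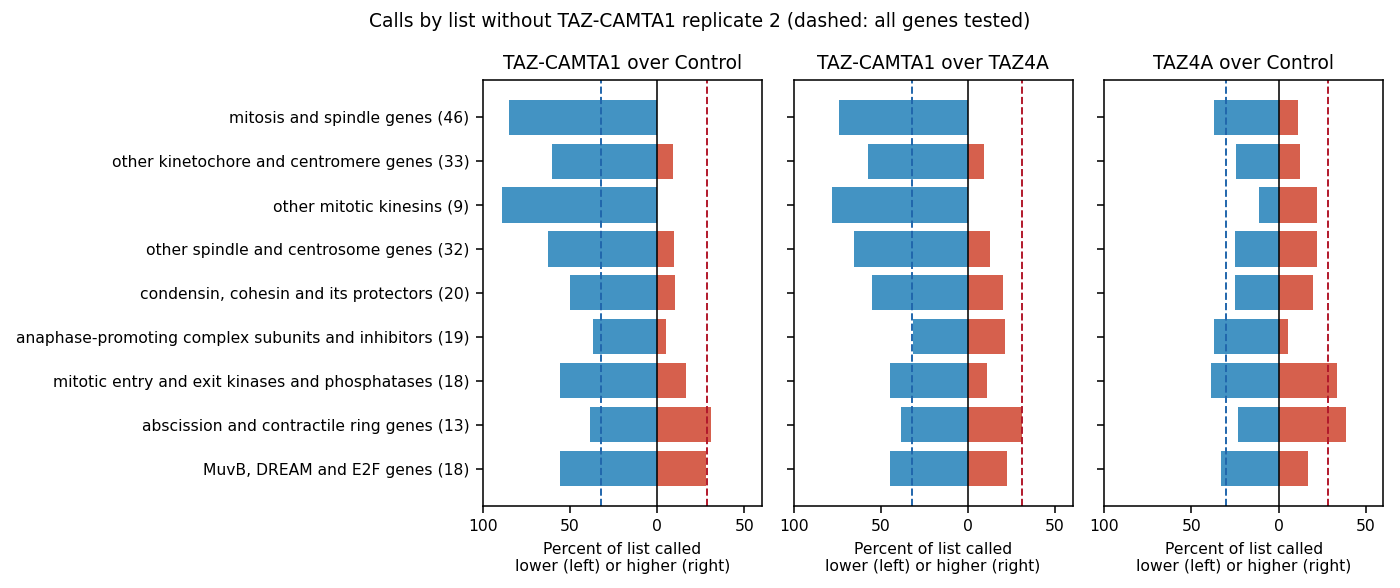
Percent of each list called lower (bars to the left) or higher (bars to the right) in the fit without TAZ-CAMTA1 replicate 2, with the number of genes tested in parentheses and dashed lines for all genes tested. In both TAZ-CAMTA1 panels the bars to the left pass the dashed line for every list but the subunits and inhibitors of the anaphase-promoting complex, which do so by little against Control and fall short against TAZ4A.

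Among the members, 30 entries of an annotated junction at a splice site shared with another were compared, in 9 genes. Some junctions are entered at both their donor and their acceptor. Each held at least 200 unique reads and had at least 30 reads at the site in each library. Junctions with nearly all or nearly none of the pooled reads at the site were left out. Kif23 was singled out among them after its values were seen, and it was not alone in having groups apart. Entries of Cenpa, Prc1 and Nusap1 had TAZ4A apart from Control, with Cenpa at 30.1 to 36.0% against 18.0 to 28.0%. An entry of Top2a had TAZ-CAMTA1 at 16.2 to 24.6% and Control at 10.1 to 15.9%. How many entries had groups apart is not given here. The Kif23 junction on chromosome 9 from 61921247 to 61924631 (mm10) skips the exon between the introns 61921247 to 61923904 and 61924217 to 61924631. At the shared acceptor it took 41.6 to 53.1% of the reads in TAZ-CAMTA1, 39.7 to 54.3% in TAZ4A and 59.6 to 64.1% in Control, on 89 to 198 reads per library, and the constructs lay below Control. At the shared donor it took 42.3, 58.0 and 43.0% in TAZ-CAMTA1, 41.2, 51.1 and 50.7% in TAZ4A, and 57.8, 63.4 and 62.6% in Control, and TAZ-CAMTA1 replicate 2 overlapped Control. At the acceptor the 95% Wilson interval of the highest TAZ4A library was 46.6 to 61.7% and that of the lowest Control library 52.3 to 66.4%, so that these single libraries were not separable at this depth, and no test was made.

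At a false discovery rate under 0.05 the authors' deposited table called 20 members lower and 0 higher in TAZ-CAMTA1 against Control, where it called 22.1% of all genes in either direction. In TAZ-CAMTA1 against TAZ4A it called 15 lower and 0 higher, where it called 27.3% of all genes in either direction. In TAZ4A against Control it called 2 lower and 0 higher, where it called 18.3% in either direction. These shares pool both directions over all 17565 genes, and the share lower alone is not given here.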

How the data were processed

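Poly-A RNA of 9 MS1 samples was sequenced, per the labels, after a stranded library preparation. Per the submitters' processing notes the tools were bcl2fastq, FastQC, STAR, featureCounts and edgeR on mm10; the sources used here do not state their versions or settings. The gene values are a deposited signal per gene that the authors name CPM, on an iGenomes annotation. Library sums ran from 976997 to 1028367, so they are not equal, and the test planned for CPM was kept. All values (100%) were whole multiples of 1 read within 0.01, and the recovered reads served edgeR and DESeq2. TPM values were deposited by the authors. Junction files hold deposited counts of reads per intron. From the authors' deposited table, log2 fold changes with p-values in the form of false discovery rates are quoted as theirs.

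Here, limma-trend 3.58.1 (R 4.3.3, robust) was fitted to log2(CPM + 0.5) of all 9 libraries, with 6 residual degrees of freedom, for the 12350 of 17565 genes that reached 0.5 CPM in 3 or more libraries, and p-values were Benjamini-Hochberg adjusted over all of them at 0.05. The reported ± beside a log2 fold change is its SE. Fold changes on this scale understate those of low genes. The alternatives used edgeR 4.0.16 and DESeq2 1.42.0, other pseudocounts (0.1 and 2), filters, scalings, TPM, a GENCODE table, library weights, the replicate block and leaving out each library. Promoters came from RefSeq GRCm38.p6, and introns and coordinates from GENCODE on GRCm38, the same build as mm10. The members, roles and lists were chosen with earlier results of these data known. Values in every library were set for 12 members and, per comparison, for up to 6 falls and 6 rises by size among called members. Of the other lists up to 2 called genes per direction, list and comparison qualified, by size among genes of at least 5 CPM in the higher group. Wilson intervals cover counting error only, and the intervals of log2 fold changes come from the limma fit.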

Additional observations from a re-analysis of the deposited data

How the results depend on the processing

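The direction of the medians of TAZ-CAMTA1 against both other groups held under every setting run, at -0.29 (range -0.31 to -0.26 without single libraries) against TAZ4A and -0.38 against Control. The deposited TPM gave -0.40 against TAZ4A, a scale on which the median of all genes also moved by -0.11. The TAZ4A median against Control was -0.06 (-0.07 to -0.05 without single libraries), -0.01 with TPM and 0.00 with CPM rescaled to equal sums. All 7, 25 and 21 called members kept their sign under rescaling, quantile normalization, TPM, edgeR and DESeq2.

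Counts of calls depended on the samples fitted, their weights, the scaling and the threshold. The share of all genes called also moved with the setting. In TAZ-CAMTA1 against Control, 15.3% of all genes were lower with all 9 libraries, 32.3% without replicate 2 and 8.03% with the 6 libraries. That share is not given for the weights, the threshold of 0.01, the replicate block or single libraries other than TAZ-CAMTA1 replicate 2. For the 6 libraries it is given in that comparison only. Counts without it do not separate these genes from all genes. For members lower in TAZ-CAMTA1 against Control, 25 became 16 with only the 6 libraries compared, 39 with library quality weights, 16 at an adjusted p under 0.01, and 17 to 39 without single libraries. For those lower against TAZ4A, 21 became 35 with weights, 12 at 0.01, and 15 to 34 without single libraries. For those lower in TAZ4A against Control, 7 became 3 with rescaled CPM and with quantile normalization, 2 with TPM, 17 with the 6 libraries, 18 with weights, 1 at 0.01 and 1 to 17 without single libraries. For those higher there, 0 became 1 with rescaled CPM, quantile normalization and DESeq2, 5 with the 6 libraries, 6 with weights and 0 to 5 without single libraries.

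Of the other mitosis genes higher in TAZ4A against Control, 7 became 12 with rescaled CPM and with DESeq2, 34 with the 6 libraries, 31 with weights, 3 at 0.01 and 3 to 32 without single libraries. Of those lower there, 10 became 46, 47, 5 (6 libraries, weights, 0.01) and 6 to 45 without single libraries. Of those higher in TAZ-CAMTA1 against Control, 5 became 9 with rescaled CPM and with edgeR, 12 with DESeq2, 2 with the 6 libraries, 20 with weights, 2 at 0.01 and 3 to 21 without single libraries. Of those lower there, 37 became 16, 87, 14 (6 libraries, weights, 0.01) and 19 to 90. Of those higher against TAZ4A, 17 became 10 with TPM, 6, 31, 4 (6 libraries, weights, 0.01) and 7 to 25, and of those lower, 42 became 18, 85, 16 and 19 to 85. The cause was not tested.

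Birc5 reversed without TAZ-CAMTA1 replicate 2 (-0.18 against Control, -0.22 against TAZ4A) and with library weights (-0.16 and -0.21), where that library had a weight of 0.0287; without TAZ-CAMTA1 replicate 3 it was at 0.17 and 0.13. Against TAZ4A, Ube2c had no direction with all libraries (0.00 ± 0.19) and was at -0.25 without replicate 2 and -0.26 with weights. Without replicate 2 the sign also changed, with no call in either fit, for Pttg1 and Top2a against Control (-0.02 and 0.02 in place of 0.20 and -0.19) and for Cenpa, Prc1 and Nusap1 against TAZ4A (-0.08, 0.05 and 0.02 in place of 0.17, -0.10 and -0.03). With the GENCODE table, chosen after seeing the data, the share of reads was 0.874% in TAZ4A and 0.867% in Control. With multiply mapped reads included, junction reads were 7178, 9456 and 9502 RPM in TAZ-CAMTA1, TAZ4A and Control. Fits that combined the missing replicate 2 with another setting were also added after seeing the data.

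With the replicate number as a block, 4 members were lower in TAZ4A against Control in place of 7, and 25 and 21 in TAZ-CAMTA1 against Control and TAZ4A. Deviations of same-numbered samples correlated at 0.0645, 0.138 and 0.175 (TAZ4A and Control), -0.120, 0.523 and 0.395 (TAZ-CAMTA1 and Control) and 0.0111, 0.321 and 0.263 (TAZ-CAMTA1 and TAZ4A). Between different numbers they ran from -0.183 to 0.0452, -0.527 to 0.563 and -0.310 to 0.259 in those pairs of groups. Each TAZ4A sample correlated best with the Control sample of its own number. TAZ-CAMTA1 replicates 2 and 3 did so with both other groups, while TAZ-CAMTA1 replicate 1 correlated best with number 3. Whether same-numbered samples share a batch is not stated in the labels and was not tested. The lowest single-library value of a member was 13.9 CPM, where 1 read was at most 0.0464 CPM.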
